A study of Mus musculus with 6 samples.

Results

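The fast and slow skeletal troponins and myosin light chains were followed as a family of 10 genes, picked by symbol from the 24532 genes of the deposited table. The family holds 5 fast isoforms (*Tnni2*, *Tnnc2*, *Tnnt3*, *Myl1* and *Mylpf*) and 5 slow isoforms (*Tnni1*, *Tnnc1*, *Tnnt1*, *Myl3* and *Myl2*). Each fast gene has a slow partner for the same subunit, and all 10 were found in the table, passed the filter on low counts and were tested.

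RNA-seq was done on gastrocnemius (GAS) muscle of C57BL/6 mice aged 20 weeks, with 3 libraries labelled WT and 3 labelled *Sirt6* KO. The WT mice were *Sirt6* *flox/flox* without Cre, and the *Sirt6* KO mice were *Myl1-Cre*; *Sirt6* *flox/flox*, so the floxed *Sirt6* alleles are common to both groups. The study reports the use of male mice. Cre is driven from the *Myl1* locus, which is itself one of the genes described here and, as the study describes it, is active mainly in fast (type II) fibers and from embryonic stages on, so loss of *Sirt6* in slow fibers or in cells other than muscle fibers cannot be assumed. The floxed line is named differently in the methods than in the reporting summary, and no library came from mice with Cre but without floxed alleles. A difference in *Myl1* RNA due to the Cre allele therefore cannot be told apart from one due to *Sirt6* deletion. Sample titles number the replicates within a group, and these numbers are used here. The sample descriptions carry other numbers, and neither is said to name animals. The p-values measure the spread between these samples.

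The gene targeted by the deletion did not follow the labels. *Sirt6*, a NAD-dependent deacetylase, stood at 2.77, 2.23 and 2.88 CPM (counts scaled to library size, TMM-normalized) in WT libraries and at 7.81, 7.44 and 6.68 CPM in *Sirt6* KO libraries. It was thus higher in *Sirt6* KO by 1.48 on the log2 scale (SE 0.17, adjusted p = 0.0113, edgeR's quasi-likelihood test). A count over the whole gene cannot show whether the floxed exons were lost, and the study's own Western blots of Sirt6 protein are not analysed here. The groups are named by their labels, on which every direction below rests. Library totals lay between 44845763 and 63016899 counts.

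Muscle contraction is switched on by calcium through troponin, a complex on the thin filament in which troponin C binds calcium, troponin I holds contraction off at rest and troponin T anchors the complex to tropomyosin. On the thick filament, each myosin heavy chain carries an essential and a regulatory light chain around its lever arm. Slow-twitch and fast-twitch fibers build these subunits from different genes, so the isoforms are widely used as markers of fiber type. Mouse GAS muscle is made up mainly of fast fibers, with slow fibers in its deep part.

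*Tnni1* and *Tnni2* encode slow and fast troponin I, *Tnnc1* and *Tnnc2* encode slow and fast troponin C, and *Tnnt1* and *Tnnt3* encode slow and fast troponin T. *Myl3* encodes the slow essential light chain and *Myl1* the fast essential light chains, which arise from a pair of start sites (MLC1f and MLC3f) that a count per gene cannot separate. *Myl2* and *Mylpf* encode the slow and the fast regulatory light chain. *Tnnc1*, *Myl2* and *Myl3* serve the heart ventricle as well as slow muscle. On GRCm38 (RefSeq), the fast troponin I gene *Tnni2* (chr7:142441816-142444410) and the fast troponin T gene *Tnnt3* (chr7:142498771-142516213) lie near each other, while the slow genes are spread over chromosomes 1, 5, 7, 9 and 14.

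The promoters of 5 members are shown because the results below turn on how members of the same class and of the same pair move: the troponin C pair, the slow troponins I and T, and *Myl1*, whose locus also drives Cre. Each sequence is from RefSeq on GRCm38.p6 and runs 5′ to 3′ on the gene's strand from 250 bases before an annotated start to 50 bases after it. Capitals mark matches on either strand to the TATA box (TATAAA), the E box (CANNTG), which MyoD-type factors bind, the M-CAT element (CATTCC), which TEAD factors bind, and a SOX core (AACAAT), and also to the MEF2 consensus and the CArG box. The windows are chr14:31208062-31208361 on the plus strand for *Tnnc1*, chr2:164779685-164779984 on the minus strand for *Tnnc2*, chr1:135799171-135799470 on the plus strand for *Tnni1*, chr7:4515926-4516225 on the minus strand for *Tnnt1* and chr1:66945007-66945306 on the minus strand for *Myl1*.
*Tnnc1* (slow troponin C): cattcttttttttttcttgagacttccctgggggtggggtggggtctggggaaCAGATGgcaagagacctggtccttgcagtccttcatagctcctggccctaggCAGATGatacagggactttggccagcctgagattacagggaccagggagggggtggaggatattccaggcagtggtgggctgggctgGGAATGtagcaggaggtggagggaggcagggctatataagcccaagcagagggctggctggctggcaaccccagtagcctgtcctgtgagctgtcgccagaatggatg
*Tnnc2* (fast troponin C): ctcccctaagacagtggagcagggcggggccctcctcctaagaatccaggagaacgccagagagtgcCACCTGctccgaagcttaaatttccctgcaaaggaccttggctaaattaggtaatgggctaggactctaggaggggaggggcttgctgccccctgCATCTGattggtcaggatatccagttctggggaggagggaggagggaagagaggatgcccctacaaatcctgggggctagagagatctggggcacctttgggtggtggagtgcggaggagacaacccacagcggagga
*Tnni1* (slow troponin I): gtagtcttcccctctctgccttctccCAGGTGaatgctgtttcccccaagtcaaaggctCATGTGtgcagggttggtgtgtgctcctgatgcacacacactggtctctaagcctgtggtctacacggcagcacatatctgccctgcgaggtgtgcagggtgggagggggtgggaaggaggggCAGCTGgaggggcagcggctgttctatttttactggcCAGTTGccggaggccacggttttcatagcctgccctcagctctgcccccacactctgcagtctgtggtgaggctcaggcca
*Tnnt1* (slow troponin T): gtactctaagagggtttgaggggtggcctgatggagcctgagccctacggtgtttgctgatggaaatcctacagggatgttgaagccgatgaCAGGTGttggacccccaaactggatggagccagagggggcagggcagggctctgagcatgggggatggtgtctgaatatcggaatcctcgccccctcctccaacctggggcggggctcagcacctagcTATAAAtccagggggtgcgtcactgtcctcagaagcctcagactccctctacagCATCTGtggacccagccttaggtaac
*Myl1* (fast essential light chain): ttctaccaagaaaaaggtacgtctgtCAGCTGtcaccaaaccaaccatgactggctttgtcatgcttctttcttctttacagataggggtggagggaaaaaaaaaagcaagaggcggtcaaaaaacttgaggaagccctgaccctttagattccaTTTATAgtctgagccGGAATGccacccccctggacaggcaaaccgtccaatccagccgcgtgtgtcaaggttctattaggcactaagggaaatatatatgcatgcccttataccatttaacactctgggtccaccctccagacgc

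Among the 8 members with a promoter window in the reference table, an E box was found in all 8, and 72.3% of the 32851 promoters of that table held one. A member with several windows counts if any of them holds a match, whereas the shares over the table are per promoter. TATAAA was found in 3 of the 8 (*Myl1*, *Myl2* and *Tnnt1*) against 13.6% of all promoters. In *Tnnt1* it spanned bases -30 to -25 from the start. In *Myl1* (-95 to -90) and *Myl2* (-216 to -211) it lay on the opposite strand and further from the start. The M-CAT letters were in 3 of the 8 (*Tnnc1*, *Myl1* and *Myl3*) against 14.7%. The CArG box was in *Myl3* against 1.63% of all promoters, the SOX core in *Myl3* against 10.7%, and the MEF2 consensus in none of the 8 against 3.19%. For *Tnni2* and *Tnnt3* no promoter was used here. A match describes letters in a window and is not a binding site.

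The slow members were the most variable genes of the family, and they varied together from library to library. In TPM, a level scaled to gene length and to a fixed sum per library, slow troponin I (*Tnni1*) was at 266, 201 and 4.06 in WT and 23.2, 172 and 33.3 in *Sirt6* KO. Slow troponin C, *Tnnc1*, was at 776, 554 and 9.91 TPM in WT and 49.8, 395 and 82.7 TPM in *Sirt6* KO. WT libraries 1 and 2 were high, WT library 3 was the lowest of all 6 libraries, and *Sirt6* KO library 2 lay near the high WT libraries, so the groups overlapped for both genes. Slow troponin T, *Tnnt1*, was at 909, 701 and 14.1 TPM in WT and 50.7, 400 and 74.9 TPM in *Sirt6* KO. For both slow light chains the pattern repeated. The slow essential chain, *Myl3*, was at 784, 649 and 15.6 TPM in WT and 45.1, 373 and 73.8 TPM in *Sirt6* KO, and the slow regulatory chain, *Myl2*, at 1380, 1154 and 28.9 TPM in WT and 61.9, 645 and 113 TPM in *Sirt6* KO.

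**Figure D1:**
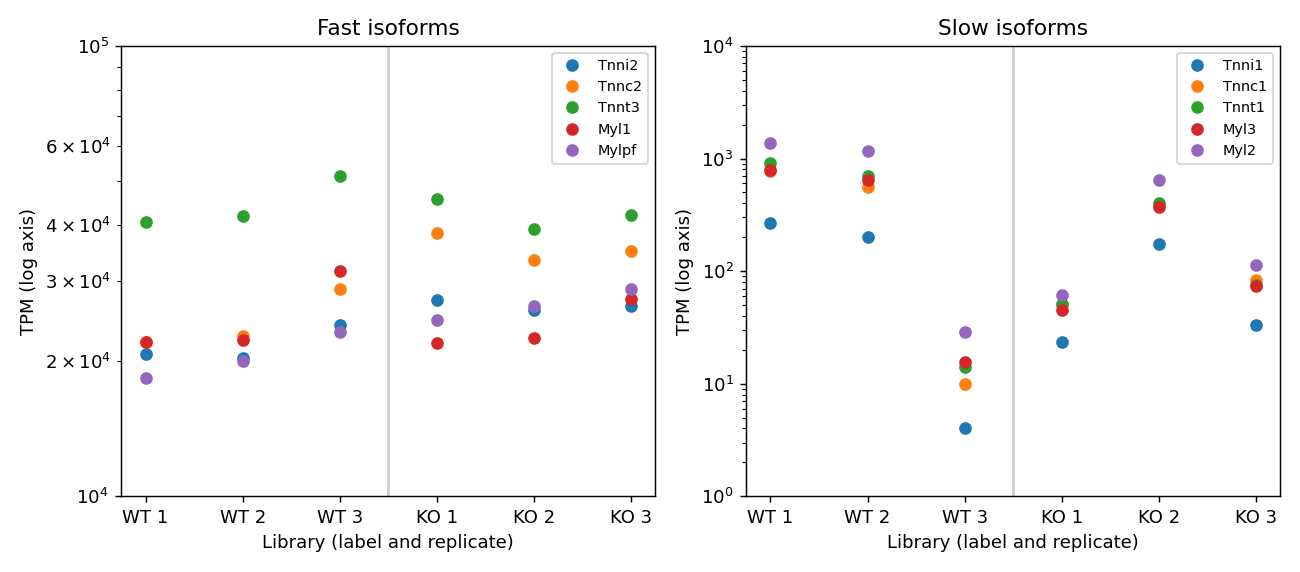
TPM of each of the 10 members (log axis, 1 colour per gene) in each library (WT left and *Sirt6* KO right of the grey line), with fast isoforms on the left panel and slow isoforms on the right. The slow members are all lowest in WT library 3 (4.06 TPM for *Tnni1*) and stay high in *Sirt6* KO library 2 (172 TPM for *Tnni1*), and the fast members stay between 18348 and 51432 TPM.

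Every slow member had its lowest level in WT library 3 and its highest in WT library 1. Between the highest and the lowest WT library the level of a slow member differed 47.7-fold to 78.3-fold, and between the highest and lowest *Sirt6* KO library 7.43-fold to 10.4-fold. The lowest value of a slow member still rested on 131 counts (*Tnni1* in WT library 3), so counting error was small beside this spread. The within-group SD of log2 CPM was 2.43 to 2.61 for the slow members, against a median of 0.164 over the 7245 genes with a mean of at least 10 CPM, among which the slow members ranked 5, 6, 7, 13 and 14 in spread. Fast members had within-group SDs of 0.20 to 0.35.

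Because of that spread, no difference between the groups in a slow member could be told from zero. The log2 fold change of *Sirt6* KO against WT was -0.82 (SE 1.21, adjusted p = 0.663) for *Tnni1*, -1.12 (SE 1.25, adjusted p = 0.554) for *Tnnc1* and -1.41 (SE 1.24, adjusted p = 0.449) for *Tnnt1* by edgeR. It was -1.34 (SE 1.21, adjusted p = 0.458) for *Myl3* and -1.42 (SE 1.24, adjusted p = 0.443) for *Myl2*. The 95% intervals ran from -3.64 to 2.01 for *Tnni1* and from -4.33 to 1.48 for *Myl2*, so they allow a large difference in either direction. In bulk RNA, fewer slow fibers and less slow-isoform RNA per fiber cannot be told apart.

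The fast members were among the most abundant transcripts of the muscle and varied less. In TPM, fast troponin I, *Tnni2*, was at 20689, 20283 and 23944 in WT and 27246, 25924 and 26472 in *Sirt6* KO. Fast troponin C, *Tnnc2*, was at 21956, 22714 and 28869 TPM in WT and 38516, 33517 and 35038 TPM in *Sirt6* KO. All 3 *Sirt6* KO libraries lay above all 3 WT libraries for both genes. Fast troponin T, *Tnnt3*, was at 40621, 41899 and 51432 TPM in WT and 45802, 39313 and 42098 TPM in *Sirt6* KO, with WT library 3 the highest of the 6 and the groups overlapping. The fast essential chain, *Myl1*, was at 22036, 22244 and 31594 TPM in WT and 21884, 22446 and 27435 TPM in *Sirt6* KO, and again overlapped. The fast regulatory chain, *Mylpf*, was at 18348, 19953 and 23219 TPM in WT and 24585, 26446 and 28827 TPM in *Sirt6* KO. Its TPM values did not overlap between the groups, whereas its CPM values did.

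By edgeR the log2 fold change was 0.39 (SE 0.21, adjusted p = 0.227) for *Tnni2*, 0.63 (SE 0.24, adjusted p = 0.114) for *Tnnc2* and 0.47 (SE 0.24, adjusted p = 0.194) for *Mylpf*. It was 0.010 (SE 0.26, adjusted p = 0.981) for *Tnnt3* and -0.050 (SE 0.28, adjusted p = 0.916) for *Myl1*, with 95% intervals of -0.59 to 0.61 and -0.71 to 0.61. Of the 10 members, 0 passed an adjusted p of 0.05 in either direction, while 16.2% of the 13801 genes tested did (7.85% higher and 8.39% lower in *Sirt6* KO). At an unadjusted p under 0.05 the count was 1 (*Tnnc2*), against 35.3% of all genes, and DESeq2's Wald test called 1 member (*Tnnc2*, adjusted p = 0.0115), against 25.8% of all genes by that test. In CPM the groups did not overlap for 2 of the 10 members (*Tnni2* and *Tnnc2*, both higher), against 40.0% of all genes (20.3% higher and 19.6% lower).

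WT library 3, the library with the lowest slow members, also held the highest WT level of all 5 fast members. Without it, edgeR's log2 fold change was 0.58 (adjusted p = 0.0138) for *Tnni2*, 0.88 (adjusted p = 0.00694) for *Tnnc2* and 0.68 (adjusted p = 0.0195) for *Mylpf*, and 3 members passed, whereas 32.5% of all genes then passed. *Tnnt3* was then at 0.23 (adjusted p = 0.221) and *Myl1* at 0.26 (adjusted p = 0.256). The slow members kept a negative fold change without that library, from -1.38 for *Tnni1* to -1.99 for *Myl2*, and none passed (lowest adjusted p = 0.123, *Tnnt1*).

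**Figure D2:**
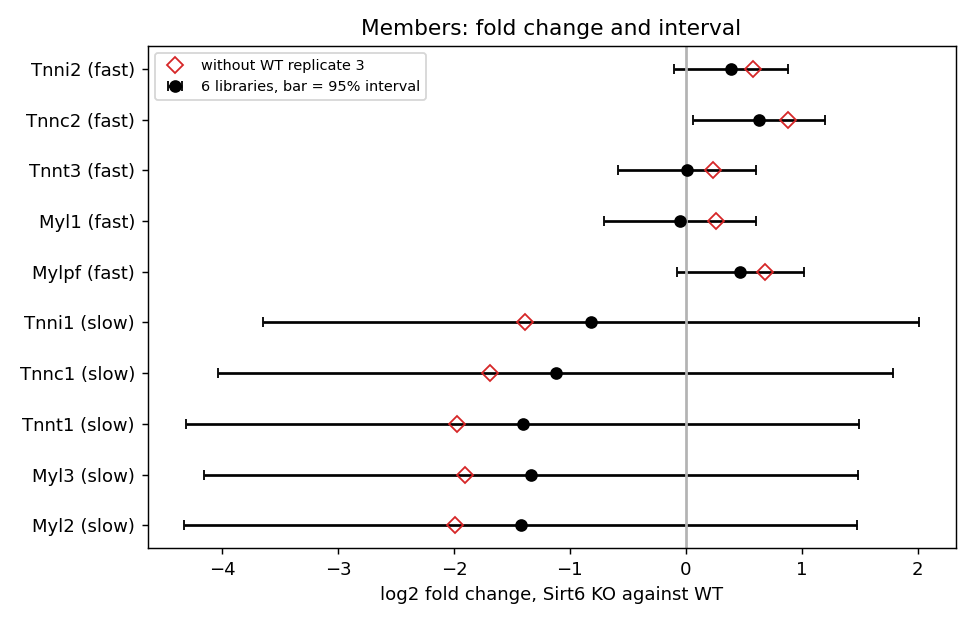
log2 fold change of *Sirt6* KO against WT for each member by edgeR, with black circles and 95% intervals for all 6 libraries and open diamonds for the fit without WT library 3. The slow members' intervals run across zero by a wide margin (-3.64 to 2.01 for *Tnni1*), and the *Tnnc2* interval (0.059 to 1.20) is the only one that does not include zero.

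The order of the fast members was not the same in both groups. In WT, TPM means ran in the order *Tnnt3* (44651 ± 5908, SD, n = 3 throughout), *Myl1* (25291 ± 5459), *Tnnc2* (24513 ± 3792), *Tnni2* (21639 ± 2007) and *Mylpf* (20506 ± 2482). *Tnnt3* stood clear of the others, while each of the other 4 differed from its neighbour by less than the larger SD of the pair. In *Sirt6* KO the order was *Tnnt3* (42405 ± 3255), *Tnnc2* (35690 ± 2563), *Mylpf* (26619 ± 2126), *Tnni2* (26547 ± 664) and *Myl1* (23922 ± 3056). *Tnnc2* was next to *Tnnt3* and apart from both neighbours by more than their SDs, whereas *Mylpf*, *Tnni2* and *Myl1* each lay within the larger SD of the next. Among the slow genes, *Myl2* was the most abundant in every library and *Tnni1* the least.

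The fast members together accounted for 12.4%, 12.7% and 15.9% of all TPM in the WT libraries and 15.8%, 14.8% and 16.0% in the *Sirt6* KO libraries. The slow members accounted for 0.412%, 0.326% and 0.00727% in WT and 0.0231%, 0.199% and 0.0379% in *Sirt6* KO. Summed over a class, fast exceeded slow 30.1-fold, 39.0-fold and 2191-fold in WT and 685-fold, 74.4-fold and 423-fold in *Sirt6* KO. The extremes of this ratio were both WT libraries, with all 3 *Sirt6* KO libraries between them.

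Each pair of isoforms gave its own fast-to-slow ratio, which divides out a library's scale. *Tnni2*/*Tnni1* was 77.7, 101 and 5899 in WT and 1174, 150 and 794 in *Sirt6* KO. *Tnnc2*/*Tnnc1* was 28.3, 41.0 and 2913 in WT and 774, 84.9 and 424 in *Sirt6* KO. The lowest values were WT libraries 1 and 2 and the highest WT library 3, so the groups overlapped in both. *Tnnt3*/*Tnnt1* was 44.7, 59.8 and 3652 in WT and 904, 98.3 and 562 in *Sirt6* KO. *Myl1*/*Myl3* was 28.1, 34.3 and 2019 in WT and 485, 60.1 and 372 in *Sirt6* KO, and *Mylpf*/*Myl2* was 13.3, 17.3 and 803 in WT and 397, 41.0 and 254 in *Sirt6* KO. All 5 ratios ranked the 6 libraries in the same order. Without WT library 3 every pair's *Sirt6* KO values lay above the other WT values. That comparison sets aside the WT library with the highest ratios, and no share over other pairs of genes was computed for it. Since the 5 ratios ranked the libraries alike, they do not count as separate observations.

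On the log2 scale the mean ratio was higher in *Sirt6* KO by 0.53 for troponin I, 1.01 for troponin C, 0.79 for troponin T, 0.83 for the essential chain and 1.496 for the regulatory chain. The SD of the log2 ratio was 3.31 to 3.71 in WT and 1.57 to 1.74 in *Sirt6* KO. A two-sided exact permutation test gave p = 0.8 for 4 of the 5 ratios and p = 0.6 for *Mylpf*/*Myl2*, and 0.8 for each after adjustment over the 5. With 3 libraries against 3 the smallest exact p is 0.1, so this test cannot pass 0.05 for a ratio.

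As a share of both isoforms of the subunit, the slow form was highest for the regulatory light chain. *Myl2* made up 6.995%, 5.47% and 0.124% of *Myl2* plus *Mylpf* in WT and 0.251%, 2.38% and 0.392% in *Sirt6* KO. *Tnni1* made up 1.27%, 0.979% and 0.0169% of troponin I in WT and 0.0851%, 0.661% and 0.126% in *Sirt6* KO. Mean shares in WT and *Sirt6* KO were 1.94% ± 1.73 and 0.510% ± 0.570 (SD, n = 3 each) for *Tnnc1*, 1.29% ± 1.12 and 0.432% ± 0.499 for *Tnnt1* and 2.11% ± 1.81 and 0.703% ± 0.808 for *Myl3*. In every library the order was *Myl2* highest and *Tnni1* lowest, and the SD of each share was near the mean in both groups.

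**Figure D3:**
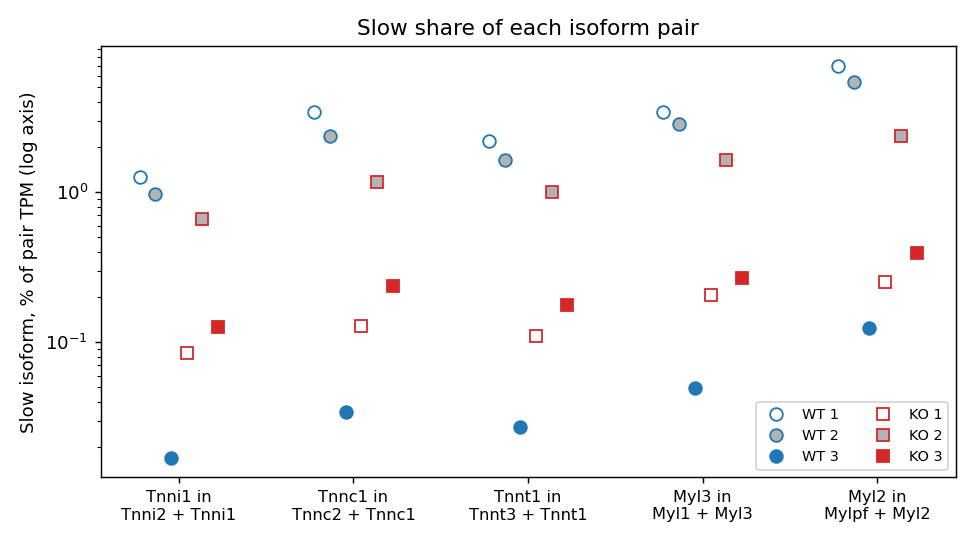
Slow isoform as a percent of slow plus fast TPM for the 5 isoform pairs in each library, on a log axis, with WT as circles, *Sirt6* KO as squares and the fill giving the replicate. WT libraries 1 and 2 hold the highest shares (6.995% and 5.47% for *Myl2*) and WT library 3 the lowest (0.124%), with the *Sirt6* KO libraries between them.

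Ratios among the slow members were far steadier than their levels, and in both classes several ratios between members separated the groups. All 20 ratios, 10 among fast members and 10 among slow members, were computed after this pattern was noticed in these data. For 14 of the 20 (7 fast and 7 slow) the 3 *Sirt6* KO values did not overlap the 3 WT values, against 37.0% of all pairs of tested genes and 39.8% of the pairs at a mean of 1000 CPM or more, a level that the fast members reach and the slow members do not. The ratios of a class are built from the same 5 genes and are not independent. Each of the 14 had an exact permutation p of 0.1, the smallest possible, and 0.143 after adjustment over the 20.

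The tightest of them set fast troponin T against fast troponin C. *Tnnt3*/*Tnnc2* was 1.85, 1.84 and 1.78 in WT and 1.19, 1.17 and 1.20 in *Sirt6* KO, all 3 *Sirt6* KO values being lower. The means were 1.83 ± 0.038 and 1.19 ± 0.014 (SD, n = 3 each), a log2 difference of -0.62 or 25.1 times the pooled SD. WT library 3, which held the highest WT level of both genes, was at 1.78 close to the other WT libraries. Among the 4560 pairs of abundant genes 3 differed by as many SDs or more, this pair included, and among all pairs 0.0238% did. Being the tightest of 20, the ratio was singled out by its values.

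The other fast ratios placed *Tnnc2* high and *Tnnt3* and *Myl1* low in *Sirt6* KO. Only the *Sirt6* KO mice carry the Cre allele at the *Myl1* locus, so its part in the ratios with *Myl1* cannot be told apart. *Tnnc2*/*Tnni2* was 1.06, 1.12 and 1.21 in WT and 1.41, 1.29 and 1.32 in *Sirt6* KO. *Tnnt3*/*Tnni2* was 1.96, 2.07 and 2.15 in WT and 1.68, 1.52 and 1.59 in *Sirt6* KO. Neither overlapped, so within the fast troponin complex the RNA of troponin C stood higher against troponin I, and that of troponin T lower. The light chains *Myl1* and *Mylpf*, which sit on the same myosin head, were in a ratio of 1.20, 1.11 and 1.36 in WT and 0.890, 0.849 and 0.952 in *Sirt6* KO, also without overlap. *Tnnt3*/*Myl1* differed by only -0.0024 on the log2 scale, and it overlapped, as did *Tnni2*/*Mylpf* and *Tnnc2*/*Mylpf*.

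Among the slow members, the steadiest ratio was that of troponin T to troponin I. *Tnnt1*/*Tnni1* was 3.41, 3.49 and 3.47 in WT and 2.18, 2.32 and 2.25 in *Sirt6* KO, although both levels spanned more than an order of magnitude. The means were 3.46 ± 0.042 and 2.25 ± 0.068 (SD, n = 3 each), a log2 difference of -0.62 or 18.8 times the pooled SD. Of all pairs of tested genes 0.0706% differed by as many SDs or more, and this ratio too was singled out by its values, as the tightest of the slow ones. *Tnnt1*/*Tnnc1* was 1.17, 1.27 and 1.42 in WT and 1.02, 1.01 and 0.905 in *Sirt6* KO, so slow troponin T was lower in *Sirt6* KO against both partners of its complex. *Tnnc1*/*Tnni1* overlapped between the groups (log2 difference -0.23). Of the light chains, *Myl2*/*Tnni1* was 5.18, 5.75 and 7.12 in WT and 2.67, 3.74 and 3.40 in *Sirt6* KO, and *Myl3*/*Tnni1* was 2.95, 3.23 and 3.86 against 1.94, 2.17 and 2.21, again without overlap. *Tnnt1*/*Myl3* and *Myl2*/*Tnnt1* overlapped.

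**Figure D4:**
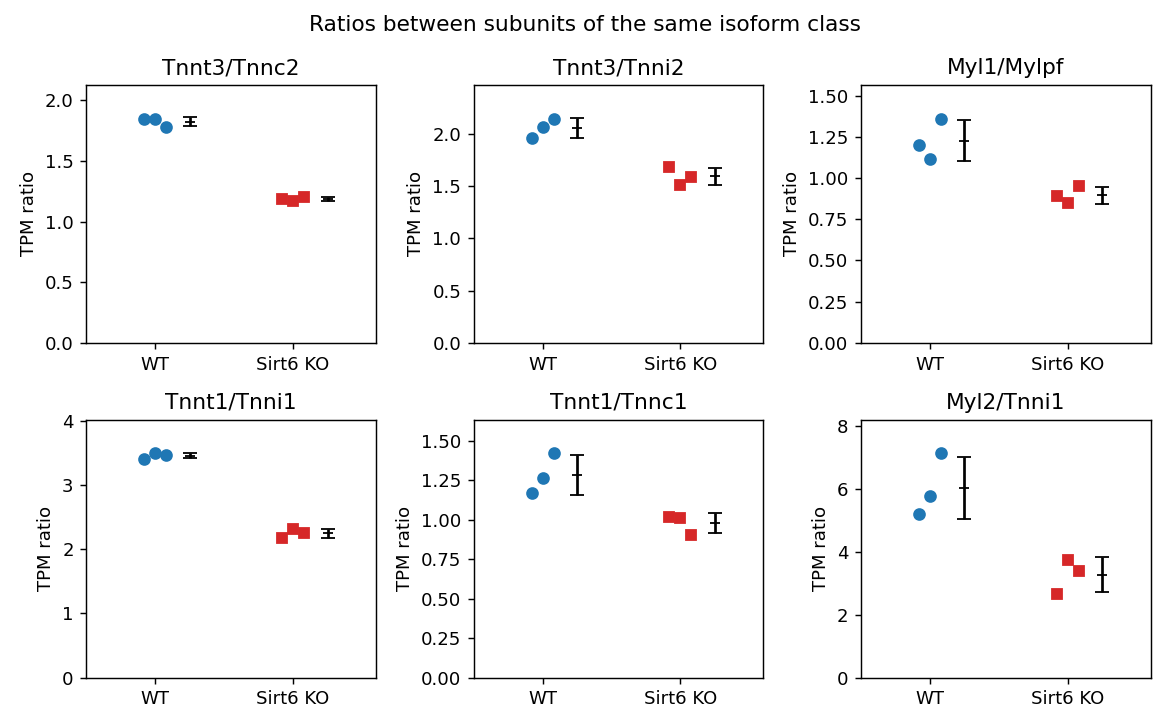
TPM ratio between members of the same class in each library, for 6 of the 14 ratios that did not overlap between the groups, circles for WT, squares for *Sirt6* KO and bars for mean ± SD of 3 libraries. *Tnnt3*/*Tnnc2* lies at 1.78 to 1.85 in WT and 1.17 to 1.20 in *Sirt6* KO, and *Tnnt1*/*Tnni1* at 3.41 to 3.49 and 2.18 to 2.32.

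Base composition and transcript length moved with the fold changes across the whole table. Across 13271 tested genes the log2 fold change had a Spearman correlation of 0.339 with the GC content of the longest transcript and -0.124 with its length, and across the 95 genes at a mean of 1000 CPM or more 0.498 and -0.176, as descriptions across genes, which are not independent replicates. Of the members, *Tnni2* had the highest GC content (55.9%) and *Tnni1* the lowest (48.7%), and transcripts ran from 700 bases for *Tnnc2* to 2153 for *Tnni1*. The difference between the edgeR log2 fold changes of *Tnnt3* and *Tnnc2* was -0.62 without correction, -0.59 with the GC trend removed and -0.59 with the trend over length removed, and that of *Tnnt1* and *Tnni1* was -0.59, -0.76 and -0.67. The correction for length and these differences without correction were chosen after seeing the data. Other ratios that separated the groups were smaller in the fit than in the mean log2 TPM ratio. *Myl2*/*Tnnc1* differed by -0.65 in TPM and by -0.30, -0.20 and -0.29 in the fit without correction, with GC and with length removed. *Myl3*/*Tnnc1* differed by -0.43 in TPM and by -0.22, -0.15 and -0.18 in the 3 fits. *Myl2*/*Tnni1* differed by -0.88 in TPM and by -0.61, -0.67 and -0.70 in the 3 fits. *Myl2*/*Myl3* differed by -0.22 in TPM and by -0.086, -0.049 and -0.10 in the 3 fits, so these slow ratios depend on how libraries are averaged. *Tnnt1*/*Tnnc1* went from -0.39 in TPM to -0.29 in the fit without correction, -0.30 with GC removed and -0.26 with length removed. *Myl1*/*Tnni2* went from -0.37 in TPM to -0.44 in the fit and -0.23 with GC removed. None of the 14 ratios changed direction in the 3 fits. Their part in the ratios was not tested beyond this.

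Of 10 other troponin and light chain genes, all far below the fast members, 8 were tested, and 1 was called, where 16.2% of all genes were called. *Myl6*, the essential light chain of smooth muscle and non-muscle myosin, was at 293, 264 and 228 TPM in WT and 345, 331 and 313 TPM in *Sirt6* KO (log2 fold change 0.45, SE 0.094, adjusted p = 0.0237 by edgeR), and this call was lost with the GC trend removed and when any library but WT library 3 was left out. *Myl4*, the embryonic and atrial essential chain, was at 11.6, 9.79 and 4.53 TPM in WT and 28.0, 11.6 and 12.3 TPM in *Sirt6* KO, with log2 fold change 1.14 (SE 0.40, adjusted p = 0.0908 by edgeR). The median log2 fold change of this list was -0.11, beside -0.021 over all genes tested. *Myl7*, the atrial regulatory chain, was at 0 in all 6 libraries, and the cardiac *Tnni3* had 14 counts or fewer. The 4 light chain kinases tested gave 0 calls, against the same 16.2% of all genes, and a median log2 fold change of -0.32. *Mylk2*, the skeletal muscle kinase, was at -0.15 (SE 0.30, adjusted p = 0.757 by edgeR).

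Slow fiber genes outside the family were, like the slow members, high in WT libraries 1 and 2 and *Sirt6* KO library 2, and 0 of 10 were called, against 16.2% of all genes (9 below zero, median log2 fold change -1.18). *Myh7*, the slow myosin heavy chain, was at 451, 357 and 6.93 TPM in WT and 34.7, 237 and 53.3 TPM in *Sirt6* KO. *Mb*, the oxygen store myoglobin, was at 8886, 10113 and 1500 TPM in WT and 1204, 4695 and 1558 TPM in *Sirt6* KO. *Ankrd2*, a slow-fiber stretch-responsive protein, had the lowest log2 fold change of the list, -2.15 (SE 1.00, adjusted p = 0.168 by edgeR). Of 9 fast fiber genes 0 were called (6 above zero, median 0.25), and *Atp2a1*, the fast calcium pump, did not overlap between the groups (17821, 17938 and 21928 TPM in WT, 27261, 23967 and 28935 TPM in *Sirt6* KO, log2 fold change 0.57, SE 0.28, adjusted p = 0.190 by edgeR). Without WT library 3, 7 of these 9 passed, 6 of them higher, where 32.5% of all genes passed. The lower one was *Myh1*, a fast heavy chain, at 3497, 3805 and 773 TPM in WT and 1031, 1491 and 988 TPM in *Sirt6* KO. *Myh1* was highest in WT libraries 1 and 2 and next in *Sirt6* KO library 2, as were *Actn2*, *Myh2* and *Tpm2* of the filament genes below. The library pattern was thus not confined to slow fiber genes. Of 6 further filament genes 0 were called (median -0.51). This list was drawn up as shared between fiber types, but it holds *Myh2*, the type IIa heavy chain, which is fiber-type specific (log2 fold change -0.87, SE 0.51, adjusted p = 0.256 by edgeR), and *Tpm2*, which encodes beta-tropomyosin, was at -0.81 (SE 0.30, adjusted p = 0.103 by edgeR).

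**Figure D5:**
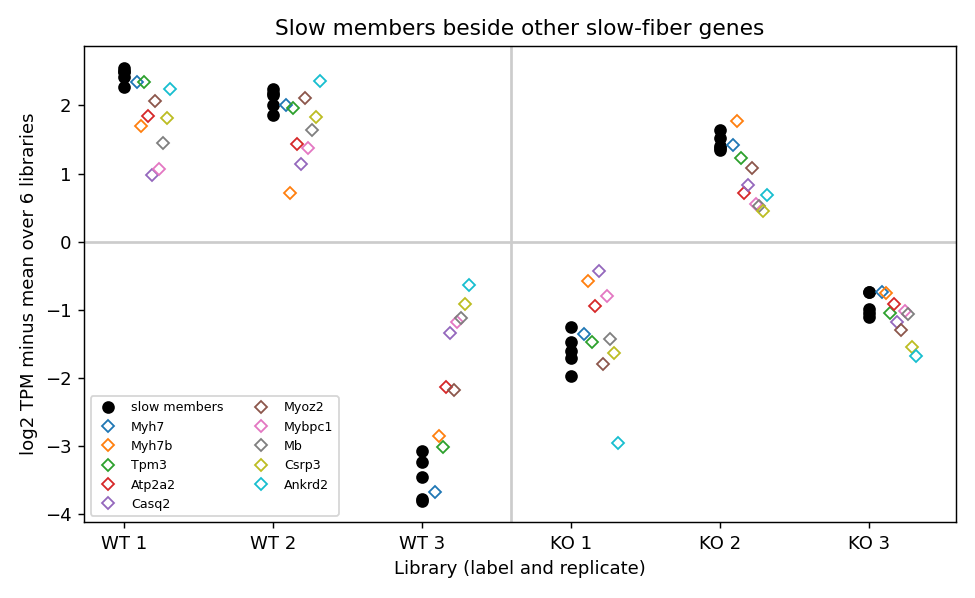
log2 TPM minus its mean over the 6 libraries for the 5 slow members (black circles) and the 10 other slow fiber genes (open diamonds, 1 colour per gene) in each library. All lie above their mean in WT libraries 1 and 2 and *Sirt6* KO library 2 and below it in the other 3, and *Ankrd2* is lowest in *Sirt6* KO library 1.

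The genes with profiles most like the slow members were other slow fiber genes. Among 7235 genes outside the family at a mean of at least 10 CPM, the mean centred log2 profile of the 5 slow members over the 6 libraries was nearest to *Myh7* (root mean square distance 0.164), *Myh6* (0.181), *Tpm3* (0.415), *Myoz2* (0.595), *Ldhb* (0.754) and *Atp2a2* (0.765), while the median candidate lay at 2.12. A slow member itself lay at 0.107 (*Tnnt1*) to 0.307 (*Tnni1*) from the mean of the other 4. *Myh6*, the cardiac heavy chain, stood at 5.38% to 5.81% of *Myh7* TPM in every library, and because these neighbouring genes are nearly identical, reads of one may be counted under the other. For the fast members the nearest were *Tcf25* (0.025), *Pwp1* (0.034), *Arfgap2* (0.037), *Tmem55b* (0.041), *Myh8* (0.045) and *Borcs6* (0.047), with a median of 0.298, and fast members lay at 0.0876 (*Tnni2*) to 0.24 (*Myl1*) from the other 4. The fast profile is nearly flat, so closeness to it is shared by many genes.

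Markers of muscle and of other cells varied between the libraries as well. Skeletal muscle markers summed to 96789 to 113549 TPM in WT and 121220 to 134921 TPM in *Sirt6* KO. Of these 5 genes, 4 had a log2 fold change above zero and 1, *Mb*, below, and edgeR called 0, against 16.2% of all genes. In CPM the groups did not overlap for 1 of the 5 (*Ckm*), against 40.0% of all genes. The red-cell genes summed to 1020, 998 and 122 TPM in WT and 351, 505 and 240 TPM in *Sirt6* KO, with WT library 3 the lowest, as for the slow members. Endothelial markers summed to 116, 128 and 56.9 TPM in WT and 70.7, 68.4 and 66.1 TPM in *Sirt6* KO. Schwann cell markers summed to 61.8, 77.7 and 24.1 TPM in WT and 25.2, 34.4 and 32.2 TPM in *Sirt6* KO, and smooth muscle markers to 121, 141 and 63.7 TPM in WT and 81.1, 84.5 and 76.3 TPM in *Sirt6* KO. In these lists WT libraries 1 and 2 were high and WT library 3 was the lowest of the 6. Adipocyte markers summed to 615, 820 and 366 TPM in WT and 505, 757 and 524 TPM in *Sirt6* KO, lowest in WT library 3 and highest among the *Sirt6* KO libraries in library 2, as the slow members were. Most of the adipocyte sum was *Fabp4*. The other adipocyte markers, *Adipoq*, *Plin1* and *Cfd*, were highest of all 6 libraries in *Sirt6* KO library 2, whereas the slow members were highest in WT library 1. *Adipoq* was at 15.5, 16.9 and 1.20 TPM in WT and 7.09, 30.7 and 13.4 TPM in *Sirt6* KO. Fibroblast markers summed to 801, 619 and 354 TPM in WT and 352, 414 and 388 TPM in *Sirt6* KO, and macrophage markers to 70.5, 32.9 and 28.5 TPM in WT and 31.8, 35.8 and 36.9 TPM in *Sirt6* KO. Most of the fibroblast sum was *Dcn*. Of the 4 fibroblast genes, 2 had a log2 fold change above zero and 2 below (median 0.062), and 0 were called. Markers of developing muscle summed to 429 to 515 TPM in WT and 467 to 526 TPM in *Sirt6* KO, most of it *Myh8*. In that list 3 genes were above zero and 2 below, and edgeR called 1, *Myog*, lower (log2 fold change -0.96, adjusted p = 0.0246). *Myh3* was higher but not called (0.74, adjusted p = 0.0535). Of the smooth muscle markers, edgeR called *Cnn1* lower (-2.02, adjusted p = 0.0452) and *Smtn* higher (0.45, adjusted p = 0.0425), where 16.2% of all genes were called. *Cnn1* was barely expressed, at 1.63, 2.79 and 0.754 TPM in WT and 0.197, 0.397 and 0.512 TPM in *Sirt6* KO. Of the heart markers, *Nppa* and *Myl7* were at 0 in every library, and the sum of 5 such genes reached at most 27.8 TPM, most of it *Myh6*. The part of these cells in the slow members' levels was not tested.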

How the data were processed

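The members and the gene lists were chosen with earlier results of these data known. Groups came from the sample labels. RNA was extracted with Trizol and sequenced with paired-end reads of 100 bp. The library kit in the methods is not the one in the labels, which is a stranded kit, and whether the counting used strand is not given in the sources used here. The submitters' processing notes list bcl2fastq 2.20.0, FastQC 0.11.7, HISAT2 2.1.0, Bowtie2 2.3.4.1 and StringTie 2.1.3b on mm10, which is GRCm38, while the reporting summary names STAR.

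The counts per gene deposited by the authors are whole numbers, not normalized between libraries. The FPKM values deposited by the authors are relative to gene length and sequencing depth, and the TPM values deposited by the authors to a fixed sum per library. TPM was used for levels, shares and ratios, and FPKM for the limma alternatives. The table holds 24532 genes, of which 7342 had no count in any library.

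Counts were tested in R 4.3.3 with edgeR 4.0.16 (filterByExpr, 13801 genes kept, TMM factors 0.909 to 1.11, quasi-likelihood test with the group as the factor, Benjamini-Hochberg adjustment at 0.05). SE is derived from the test. The common biological coefficient of variation was 24.1%. Tested on counts simulated from these libraries, with 200 of 13592 genes changed by 2 on the log2 scale, the test recovered 83% of them, and 6.74% of its calls were false. Each gene was simulated separately, with no library pattern shared between genes and no GC trend, so these rates need not hold for the real libraries. Ratios of TPM were compared on the log2 scale with two-sided exact permutation tests (SciPy 1.17.1, Python 3.11.15). Alternatives were DESeq2 1.42.0, its size factors, other filters on low counts, limma 3.58.1 on log2(FPKM + 1) or log2(FPKM + 0.1) after quantile normalization, a block for the replicate number, a lowess correction for GC content (span 0.3, GENCODE M21, known for 96.2% of tested genes) or length, and each library left out in turn.

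Named genes are *Sirt6*, the 10 members, genes of the lists of other troponins and light chains, light chain kinases, slow and fast fiber genes and further filament genes that were called, did not overlap or were abundant, and the 6 genes nearest in profile to each class. Genes of these lists that met none of these, and the markers, are named for their values. RefSeq positions were matched for 24462 genes, and RefSeq promoters hold 8 members.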

Additional observations from a re-analysis of the deposited data

How the results depend on the processing

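The slow members kept a negative log2 fold change in all 16 alternatives and never passed (*Myl2* -3.07 to -0.89, *Tnni1* -2.26 to -0.15, lowest adjusted p 0.123). *Tnnc2* kept a positive one (0.31 to 0.88, adjusted p 0.00694 to 0.492). *Tnnt3* was near zero and turned to -0.28 under both limma settings, -0.13 with GC correction, -0.11 with GC correction and block, and -0.094 with length correction, which was chosen after seeing the data. Leaving out a library moved *Tnnt3* between -0.10 and 0.23 and *Myl1* between -0.19 and 0.26. It moved the log2 ratio of *Tnni2*/*Tnni1* between -0.57 and 2.55, of *Tnnc2*/*Tnnc1* between -0.19 and 3.15, of *Tnnt3*/*Tnnt1* between -0.34 and 2.83, of *Myl1*/*Myl3* between -0.25 and 2.83, and of *Mylpf*/*Myl2* between 0.45 and 3.41, the high ends being those without WT library 3 and the low ends those without WT library 1. *Tnnt3*/*Tnnc2* stayed between -0.64 and -0.61 and *Tnnt1*/*Tnni1* between -0.64 and -0.60.

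Counts of genes moved more. The genes lower and higher in *Sirt6* KO numbered 1158 and 1084, against 1820 and 1746 by DESeq2, 479 and 455 with GC correction, and 372 and 287 with GC correction and block. Leaving out a library gave 2 to 2219 lower and 6 to 2363 higher, the lowest without *Sirt6* KO library 1 and the highest without WT library 3, so the calls of single genes depend on few libraries. DESeq2 called 1 member, 1 fast fiber gene (*Atp2a1*), 2 further filament genes (*Acta1* and *Tpm2*) and 2 other troponins and light chains (*Myl4* and *Myl6*). The last list had 2 calls with the replicate block, and 0 with GC correction, with or without the block. Leaving out a library gave 0 to 3 members, 0 to 7 fast fiber genes, 0 to 1 slow fiber gene, 0 to 3 further filament genes, 0 to 3 other troponins and light chains and 0 to 1 kinase, with each highest count without WT library 3. The causes were not tested.

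Same-numbered libraries deviated together at r = -0.11, 0.26 and 0.16. The value for WT library 2 with *Sirt6* KO library 2 (0.26) was the highest of any WT library with any *Sirt6* KO library. WT library 1 correlated best with *Sirt6* KO library 2 (0.21) and WT library 3 with *Sirt6* KO library 1 (0.21). Deviations from the means of 3 libraries cannot decide whether the numbers pair the samples. With the replicate number as a block, 1018 genes were lower, 904 were higher and 0 members were called, and a sign-flip test of the 5 fast-to-slow ratios gave an exact p of 0.75 each, where 3 pairs allow no less than 0.25. Depth was not the limit for the members, whose lowest count was 131.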
